A study of Bos taurus with 2 samples.

Results

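Solute carriers are membrane proteins that move amino acids, sugars, ions, metals, nucleosides and cofactors across the plasma membrane and the membranes of organelles. In the blastocyst, the outer trophectoderm is a polarised epithelium whose carriers feed the embryo and drive fluid into the cavity, while the inner cells (epiblast and hypoblast) take up what reaches them through it. Many carriers come as small families of related proteins that handle the same substrate with a different affinity or membrane location, so the family member in use can differ between lineages.

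The genes described here are the 201 symbols that start with SLC and a digit and had at least 100 unique molecules (UMIs) over both libraries. They came from 350 such symbols among 35643 listed features. Of the others, 147 lay under that minimum, 12 of them at 0, and 2 were left out by the rule. The members were thus chosen by their summed UMI counts, so their detection is no finding. Just inside it were SLC48A1 (106 UMIs), SLC39A5 (107) and SLC16A6 (109), and just outside SLC7A14 (94), SLC35D2 (92) and SLC4A8 (91). By their full names 3 members are no transporters (SLC4A1AP, SLC2A4RG and SLC7A6OS). They are counted but not discussed.

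The counts come from single-nucleus RNA sequencing of cattle (Bos taurus) material labelled wild type. The first library was made from blastoids, embryo-like aggregates grown in microwells from 8 bovine expanded potential stem cells (bEPSC), 8 extraembryonic endoderm (bXEN) cells and 16 trophoblast stem cells (bTSC) each. Blastocysts at day 8 gave the second. Both sources were frozen before nuclei were taken. The labels do not say how many structures were pooled. Feeder cells (iMEF) had been used to grow the lines and were depleted by plating before aggregation. With 1 library per group there was no replicate check, so differences are between these libraries, no p-value is given, and intervals (95%, exact) cover counting error only.

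After filtering, 1914 blastoid barcodes with 7481886 UMIs and 827 blastocyst barcodes with 6861558 UMIs were kept. Over all deposited barcodes the median depth was 2012 UMIs for blastoids and 6920 UMIs for blastocysts, and the libraries shared 1 barcode sequence. Nuclei were clustered within each library without any solute carrier and without the lineage marker genes, then named from markers. The blastocyst gave 235 trophectoderm-like nuclei (10 trophectoderm markers raised, among them GATA2, GATA3 and TFAP2C, against 4 hypoblast markers). It gave 398 hypoblast-like nuclei (12 hypoblast markers, among them GATA4 and PDGFRA, against 5 epiblast markers). The epiblast-like class held 76 nuclei (4 epiblast markers, NANOG, SOX2, PRDM14 and LIN28B, against 3 hypoblast markers). SOX2 and PRDM14 were among the markers raised in hypoblast-like nuclei too. A further 118 blastocyst barcodes had a median of 1628.5 UMIs, carried 7 trophectoderm and 3 hypoblast markers led by KRT19, KRT18 and KRT8, and stayed without a lineage name as the shallow cluster. The blastoid gave 154 trophectoderm-like nuclei (7 trophectoderm markers, with GATA2, GATA3 and TFAP2A, against 4 hypoblast markers), 141 nuclei whose leading genes were LMX1A, LDB2, NLGN1 and DCC (an axon guidance receptor), called DCC-high, and 1619 barcodes with 15.7% of their UMIs from ribosomal protein genes, called ribosomal-rich. No blastoid cluster was named epiblast-like or hypoblast-like. The epiblast-like class and the blastoid trophectoderm-like class had less than 2 times as many raised markers as the next list had, and would have stayed unnamed under such a limit. The epiblast-like class was also weakly set apart from hypoblast-like nuclei: at a finer clustering 60 of its 76 nuclei joined a group named hypoblast-like and 16 stayed epiblast-like. The ribosomal-rich class had a median of 1922 UMIs and 11 trophectoderm and 11 hypoblast markers raised.

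As whole lists, the 24 measured trophectoderm genes summed to 4139 CPM (UMIs of the genes over all UMIs of the class or library, on the usual CPM scale) in trophectoderm-like, 2093 in DCC-high and 12944 in ribosomal-rich barcodes of the blastoid. In the embryo they summed to 3069 CPM in trophectoderm-like nuclei, 462 in hypoblast-like and 406 in epiblast-like ones. The 32 hypoblast genes summed to 5850, 2010 and 5194 CPM in the same blastoid classes and to 5592, 8596 and 5577 CPM in the embryo classes. The 18 measured epiblast genes summed to 497, 710 and 421 CPM in those blastoid classes and to 893, 1579 and 1866 CPM in the embryo classes. The hypoblast sum thus lay above the trophectoderm sum in the trophectoderm-like nuclei of both libraries, and the trophectoderm sum of the blastoid was highest in ribosomal-rich barcodes. In epiblast-like nuclei the hypoblast sum likewise lay above the epiblast sum. That epiblast sum was the highest of the named embryo classes, with hypoblast-like nuclei next. The names rest on how many markers were raised over the other clusters, and these sums go against the trophectoderm-like name in the blastoid.

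Markers of cell types outside the embryo were compared in the same way. The 15 fibroblast genes summed to 60.4 CPM in the blastoid and 29.1 CPM in the blastocyst, with none of them at 0 in either library. The 12 measured mesoderm genes summed to 213 and 16.0 CPM, with TBXT, MIXL1, MESP2, FOXF1, MSGN1 and SNAI2 at 0 in the blastocyst, and reached 572 CPM in the DCC-high class. The neural list, written with the leading genes of that class known, summed to 12177 CPM there and to 421 CPM in blastoid trophectoderm-like nuclei, and SOX1 was at 0 in both. The part of such cells in the differences below was not tested.

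Together the members made up 1.20% (1.19% to 1.21%) of the UMIs of the blastoid and 1.32% (1.31% to 1.33%) of those of the blastocyst. Within the blastocyst they took 1.40% in trophectoderm-like, 1.38% in epiblast-like and 1.26% in hypoblast-like nuclei. In the blastoid they took 1.41% in trophectoderm-like, 1.14% in ribosomal-rich and 1.03% in DCC-high barcodes. The trophectoderm-like nuclei of both libraries therefore gave nearly the same total, although the genes behind that total differed.

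Which carriers marked which lineage of the embryo was asked first. A member was called for a class where its CPM was at least 2-fold that of every other named class of the same library, among the 175 members with at least 50 UMIs over the classes. For trophectoderm-like nuclei 40 members (22.9%) were called, where the same rule called 10.1% of all 10610 features tested. Hypoblast-like nuclei had 4 (SLC26A11, SLC27A4, SLC29A1 and SLC6A8, against 0.886% of all features) and epiblast-like nuclei 7 (SLC16A10, SLC23A2, SLC28A1, SLC35G2, SLC36A4, SLC44A5 and SLC6A11, against 2.38%). A larger set of 28 members (16.0%) was at least 2-fold higher in hypoblast-like and in epiblast-like nuclei than in trophectoderm-like nuclei, where 11.7% of all features were. This last contrast was added after the values were seen. The hypoblast-like and epiblast-like calls changed with the settings, and so did the shares of all features. At a coarser clustering 8 and 17 members were called of 175, against 190 and 766 of 10638 features. With at least 1000 genes per barcode 7 and 16 were called (3.95% and 9.04%, against 2.81% and 6.43%). With gates on marker genes 4 and 25 were called (2.38% and 14.9%, against 1.25% and 19.2%), so there the epiblast-like share lay under the background. Trophectoderm-like calls fell to 21 with those gates (12.5%, against 5.22%) and to 28 at the coarser and at the finer clustering (16.0% and 16.1%, against 6.99% and 7.01%).

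**Figure D1:**
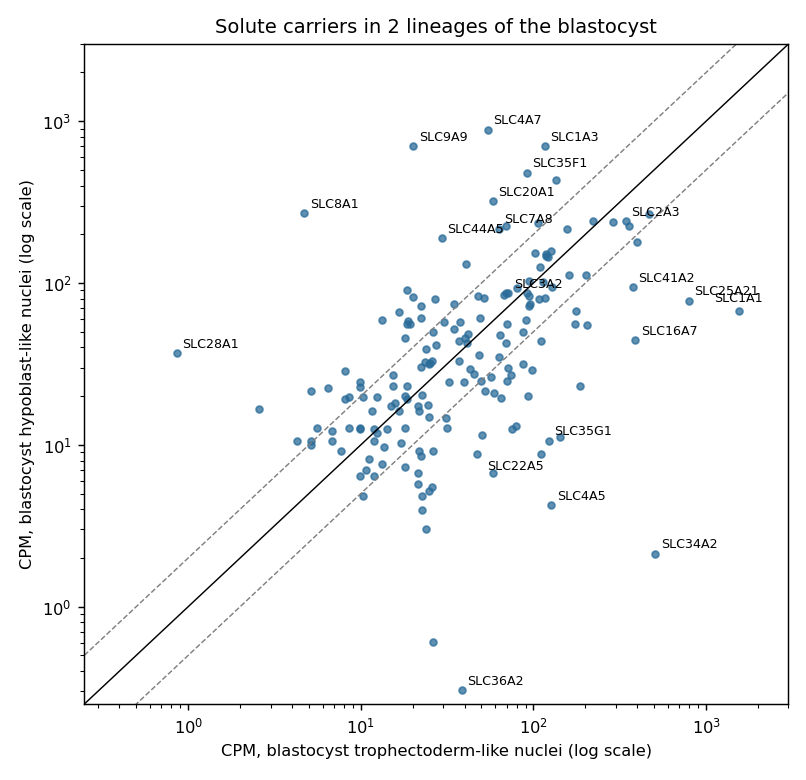
Each point is a member with at least 50 UMIs over the blastocyst classes, placed by its CPM in trophectoderm-like nuclei (horizontal, log scale) and in hypoblast-like nuclei (vertical, log scale). The solid line marks equal levels and the dashed lines a 2-fold difference. SLC1A1, SLC34A2 and SLC36A2 lie far below the lines and SLC8A1, SLC9A9, SLC4A7 and SLC28A1 far above them, while SLC2A3 and SLC3A2 lie between them.

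The same carriers were then set side by side between the libraries as wholes. In the blastoid, 49 of 201 members (24.4%) were at least 2-fold higher than in the blastocyst, where 21.0% of all 11976 features with at least 100 UMIs were. At least 2-fold lower were 43 members (21.4%), where 18.0% of all features were. The members' median log2 ratio was -0.11, beside -0.14 over all features. These shares lie near the background, and the counts by transport role given below stand beside the same shares of all features, 21.0% higher and 18.0% lower. For trophectoderm-like nuclei alone, described further on, the shares of all features were 15.2% and 11.7%. Roles hold few members, so their counts describe those members and no test was made of a role. The scale itself mattered: over the 7828 features that reached 100 UMIs in each library the median log2 ratio was -0.25, and setting that median to 0 gave 56 members higher and 27 lower (27.9% and 13.4%, against 25.3% and 12.8% of all features). Ribosomal-rich barcodes were 84.6% of the kept blastoid barcodes and held 3163419 of their 7481886 UMIs. A class weighs in a whole-library ratio by its UMIs, and the lineages also differ in number. Such a ratio mixes the makeup of the libraries with levels in nuclei, and fewer nuclei of a class and less RNA per nucleus cannot be told apart in it.

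A pair of glutamate carriers differed in opposite directions between lineages. SLC1A1 (EAAT3), a sodium-driven glutamate and aspartate importer, measured 1552 CPM (1501 to 1603) in trophectoderm-like, 67.1 (58.5 to 76.5) in hypoblast-like and 6.19 (2.01 to 14.5) in epiblast-like nuclei of the blastocyst, and 388 in the shallow cluster. SLC1A3 (EAAT1), a second importer of the same substrates, ran the other way, with 116 CPM (103 to 131) in trophectoderm-like, 698 (669 to 727) in hypoblast-like and 451 (406 to 500) in epiblast-like nuclei. None of the 3 intervals overlapped for either gene. Pooling the hypoblast-like and epiblast-like nuclei, SLC1A1 was 28.2-fold (24.6 to 32.4) higher in trophectoderm-like nuclei and SLC1A3 5.59-fold (4.94 to 6.36) lower there.

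In the blastoid both carriers were low. SLC1A1 measured 193 CPM (176 to 211) in trophectoderm-like, 95.2 in ribosomal-rich and 51.1 in DCC-high barcodes. It was still called for the trophectoderm-like class, 2.03-fold (1.75 to 2.35) above the next, but at a level 8.04-fold (7.30 to 8.87) under that of trophectoderm-like nuclei of the embryo. SLC1A3 measured 2.07 CPM (0.671 to 4.82) in trophectoderm-like, 20.0 in DCC-high and 1.58 in ribosomal-rich barcodes. Its 48 UMIs in the whole blastoid library stood against 3057 in the blastocyst, a 69.4-fold (52.2 to 94.4) lower level and the lowest ratio of all members (log2 -6.12, and -5.48 without the ribosomal-rich barcodes). The embryo classes that carried most SLC1A3 had no named counterpart in the blastoid. Within trophectoderm-like nuclei SLC1A3 had 5 UMIs in the blastoid against 271 in the embryo, a ratio of 56.1 (23.8 to 174) by counting error alone. The part of free RNA in either count was not tested.

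Shares of nuclei gave the same order. To set classes of unequal depth side by side, each nucleus was thinned to 2000 UMIs and shallower ones were left out (3 of 235 blastocyst trophectoderm-like, 7 of 398 hypoblast-like, 0 of 76 epiblast-like and 4 of 154 blastoid trophectoderm-like nuclei, but 936 of 1619 ribosomal-rich barcodes). At least 1 SLC1A1 UMI was seen in 88.4% (83.5% to 92.2%) of blastocyst trophectoderm-like, 10.2% (7.41% to 13.7%) of hypoblast-like and 2.63% of epiblast-like nuclei, and in 28.7% (21.6% to 36.6%) of blastoid trophectoderm-like nuclei. Without thinning these shares were 98.3%, 19.3%, 6.58% and 77.3%. SLC1A3 was seen in 14.2%, 66.8% and 40.8% of thinned blastocyst nuclei in the same order, and in 0.667% (0.0169% to 3.66%) of blastoid trophectoderm-like nuclei (33.6%, 90.7%, 76.3% and 3.25% without thinning). The SLC1A3 share of that class lay within the interval of the 683 deepest ribosomal-rich barcodes, 0.293% (0.0355% to 1.05%). The median depth of the whole ribosomal-rich class was 1922 UMIs. Free RNA in droplets can add UMIs to any class, and its part in these shares was not tested.

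**Figure D2:**
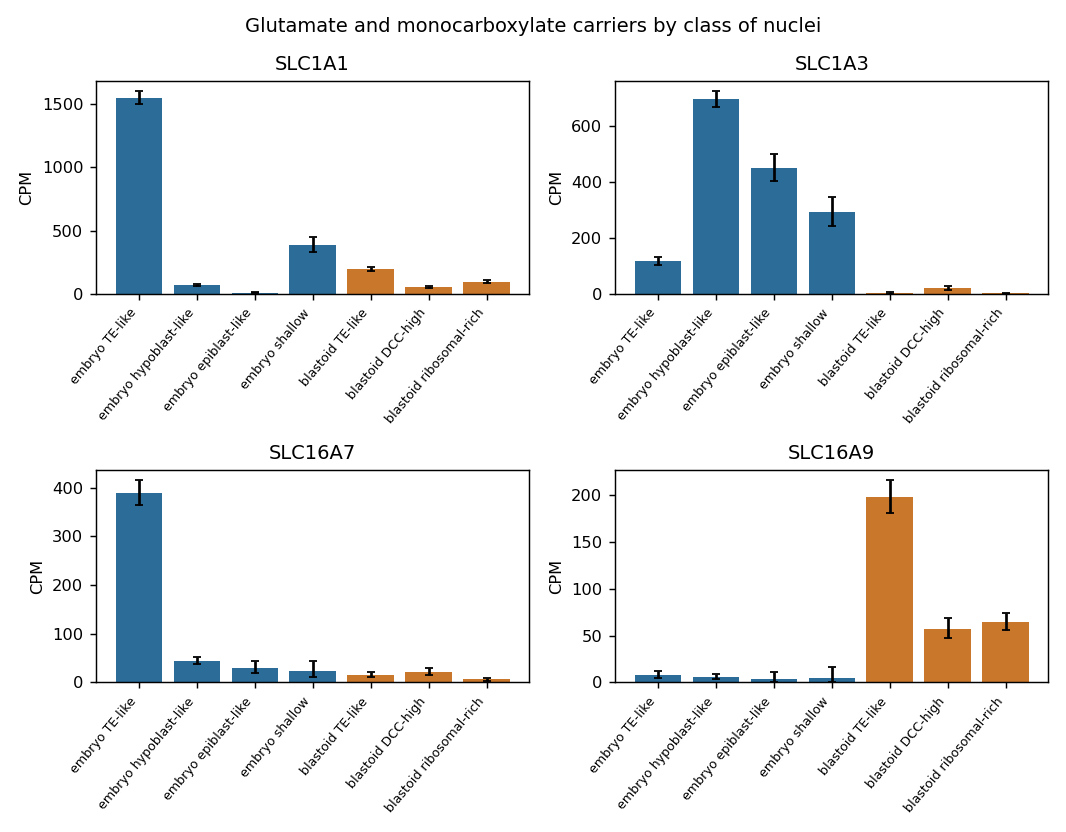
Bars give the CPM of 4 carriers in the 4 classes of the blastocyst (blue) and the 3 of the blastoid (orange), and error bars the exact Poisson 95% interval, which covers counting error only. SLC1A1 and SLC16A7 peak in trophectoderm-like nuclei of the embryo, SLC1A3 in its hypoblast-like nuclei, and SLC16A9 in trophectoderm-like nuclei of the blastoid.

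Of all 38 amino acid and peptide carriers, 10 were at least 2-fold higher and 12 at least 2-fold lower in the whole blastoid library, and 6 and 4 of 33 within trophectoderm-like nuclei. Among the lower ones over whole libraries were some that were higher in the inner classes of the embryo than in its trophectoderm-like nuclei. SLC7A8 (LAT2), a light chain that exchanges large neutral amino acids, measured 62.9 CPM in trophectoderm-like, 217 in hypoblast-like and 234 in epiblast-like nuclei, and was 2.12-fold (1.92 to 2.35) lower in the blastoid library (log2 -1.09, and -0.84 with median scaling). Within trophectoderm-like nuclei SLC7A8 was instead 1.55-fold (1.26 to 1.92) higher in the blastoid. The arginine and lysine importer SLC7A1 (CAT1) measured 18.8, 58.0 and 42.1 CPM in the same order and was 2.13-fold (1.73 to 2.64) lower in the blastoid, a log2 ratio of -1.09 that was -0.55 without the ribosomal-rich barcodes. Within trophectoderm-like nuclei the SLC7A1 ratio was 1.27 (0.845 to 1.93), with an interval that includes 1. For the creatine importer SLC6A8 the levels were 18.4, 56.2 and 18.6 CPM, and the blastoid held 34 UMIs against 276, an 8.85-fold (6.18 to 13.0) lower level (log2 -3.15, and -3.98 without the ribosomal-rich barcodes). In trophectoderm-like nuclei SLC6A8 had 3 UMIs against 43, under the minimum of 50 UMIs for a comparison there. The proline carrier SLC6A20 measured 136, 434 and 318 CPM in the embryo and was 2.42-fold (2.24 to 2.62) lower in the blastoid library. Its log2 ratio of -1.28 fell under the 2-fold line, to -0.91, without the ribosomal-rich barcodes. Within trophectoderm-like nuclei the SLC6A20 level was instead 1.75-fold (1.52 to 2.01) higher in the blastoid. The heavy chain SLC3A2, which anchors LAT light chains in the membrane, was level: 71.5, 86.5 and 92.9 CPM in the embryo and 81.9, 72.7 and 96.7 CPM in the trophectoderm-like, DCC-high and ribosomal-rich barcodes of the blastoid. Its whole-library ratio was 1.02 (0.912 to 1.15).

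Several peptide and proton-coupled amino acid carriers were highest in trophectoderm-like nuclei of the embryo. The di- and tripeptide importer SLC15A1 (PEPT1) measured 31.7 CPM in trophectoderm-like against 12.8 and 12.4 in hypoblast-like and epiblast-like nuclei, and 69.5 against 6.32 and 12.0 in the 3 blastoid classes, so it was called for trophectoderm-like nuclei in both libraries. Its relative SLC15A2 (PEPT2) measured 203, 112 and 79.3 CPM in the embryo and 53.3 CPM in blastoid trophectoderm-like nuclei, 3.80-fold (3.12 to 4.65) lower than in those of the embryo. SLC36A2, a proton-driven glycine and proline carrier, gave 38.5 CPM in embryo trophectoderm-like nuclei, with 1 UMI in all hypoblast-like and epiblast-like nuclei together, a 158-fold ratio whose interval ran from 27.7 to 6310. Its relative SLC36A4, found on lysosomes, ran the other way, at 2.57, 16.7 and 48.3 CPM. SLC38A9, the lysosomal carrier through which arginine is sensed by the mTORC1 kinase, was also called for trophectoderm-like nuclei in both libraries, with 397 CPM against 179 and 162 in the embryo and 442 against 214 and 138 in the blastoid.

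Other amino acid carriers were higher in the blastoid. SLC7A4, a relative of the arginine carriers whose own substrate is not settled, measured 1432 CPM (1390 to 1474) in ribosomal-rich, 366 in trophectoderm-like and 223 in DCC-high barcodes, against 70.2, 56.2 and 19.8 CPM in the named embryo classes. In the shallow embryo cluster it reached 334 CPM. Over whole libraries it was 10.6-fold (9.64 to 11.6) higher in the blastoid, a log2 ratio of 3.40 that was 2.04 without the ribosomal-rich barcodes. The glutamine importer SLC1A5 (ASCT2) measured 117 CPM in ribosomal-rich and 33.1 in trophectoderm-like barcodes against 15.0 to 24.8 in the named embryo classes. Its whole-library ratio was 3.75 (3.09 to 4.59), a log2 ratio of 1.91 that fell under the 2-fold line, to 0.94, without the ribosomal-rich barcodes. The glutamine carriers SLC38A1 and SLC38A2, neighbours in the RefSeq gene order, moved apart. SLC38A1 had 215 UMIs in the blastoid against 17 in the blastocyst (11.6-fold, 7.08 to 20.3) with its highest level, 81.6 CPM, in DCC-high nuclei, while SLC38A2 was 1.56-fold (1.43 to 1.71) lower in the blastoid and measured 68.9 CPM in trophectoderm-like, 225 in hypoblast-like and 185 in epiblast-like nuclei. The taurine importer SLC6A6 was at 2.48 to 5.14 CPM in the named embryo classes and at 19.0 to 24.0 in all 3 blastoid classes.

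Of the 6 monocarboxylate carriers, 1 was at least 2-fold higher, 2 at least 2-fold lower and 3 within 2-fold over whole libraries. Within trophectoderm-like nuclei 1 of 4 was higher and 2 were lower. SLC16A7 and SLC16A9 lay furthest apart there, in opposite directions. SLC16A7 (MCT2), a high-affinity lactate and pyruvate carrier, measured 390 CPM (365 to 416) in trophectoderm-like, 44.3 in hypoblast-like and 29.7 in epiblast-like nuclei of the embryo. In the blastoid it lay at 16.1 CPM (11.5 to 22.0) in trophectoderm-like, 22.1 in DCC-high and 6.32 in ribosomal-rich barcodes, so trophectoderm-like nuclei were 24.2-fold (17.5 to 34.2) lower. SLC16A9, a carnitine carrier of the same family, ran the other way, with 198 CPM (181 to 217) in blastoid trophectoderm-like nuclei, 57.4 in DCC-high and 64.8 in ribosomal-rich barcodes. In the embryo SLC16A9 had 41 UMIs in all and 3.72 to 7.71 CPM in the named classes, and trophectoderm-like nuclei differed 25.7-fold (16.1 to 43.7). After thinning, an SLC16A9 UMI was seen in 26.0% (19.2% to 33.8%) of trophectoderm-like nuclei of the blastoid and in 0.862% (0.105% to 3.08%) of those of the embryo (64.9% and 3.40% without thinning). The general lactate carrier SLC16A1 (MCT1) was present throughout, at 360, 226 and 232 CPM in the embryo and 178, 117 and 278 CPM in the blastoid. It was 2.02-fold (1.80 to 2.27) lower in blastoid trophectoderm-like nuclei, which median scaling moved just under 2-fold.

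Of the glucose carriers, SLC2A1 and SLC2A3 stayed well within 2-fold between trophectoderm-like nuclei of embryo and blastoid, while SLC2A8 did not. SLC2A1 (GLUT1) measured 94.6 CPM in trophectoderm-like, 103 in hypoblast-like and 109 in epiblast-like nuclei, and 107, 62.6 and 174 CPM in the trophectoderm-like, DCC-high and ribosomal-rich barcodes of the blastoid. Between trophectoderm-like nuclei its ratio was 1.13 (0.938 to 1.36). SLC2A3 (GLUT3), a high-affinity glucose importer, lay at 343, 240 and 244 CPM in the embryo and at 304, 297 and 734 CPM in the blastoid. It was highest in the ribosomal-rich class and, in the embryo, in the shallow cluster (563 CPM). Among trophectoderm-like nuclei SLC2A3 was 1.13-fold (1.02 to 1.25) lower in the blastoid. SLC2A8 (GLUT8), a glucose carrier of internal membranes, measured 36.8, 33.1 and 23.5 CPM in the embryo and 17.8, 9.48 and 34.8 CPM in the blastoid. It was 2.07-fold (1.42 to 3.06) lower in blastoid trophectoderm-like nuclei, an interval that includes 2-fold. Other sugar carriers differed further. SLC2A13, a proton-driven myo-inositol importer, measured 1296 CPM in trophectoderm-like and 702 in DCC-high nuclei of the blastoid against 467, 267 and 275 CPM in the embryo, and was 2.77-fold (2.59 to 2.98) higher in blastoid trophectoderm-like nuclei. The fructose carrier SLC2A5 measured 173 CPM in trophectoderm-like, 55.6 in hypoblast-like and 23.5 in epiblast-like nuclei and 27.3 CPM in blastoid trophectoderm-like nuclei, 6.36-fold (4.89 to 8.37) lower. The urate carrier SLC2A9 had 40 UMIs in the blastoid against 262, and measured 13.3, 59.5 and 32.2 CPM in the 3 embryo lineages. Over the 8 sugar carriers, 0 were at least 2-fold higher and 3 (SLC2A5, SLC2A9 and SLC45A4) at least 2-fold lower in the whole blastoid library, and 1 and 2 of 7 within trophectoderm-like nuclei. SLC2A13 lay just under the 2-fold line over whole libraries, at a log2 ratio of 0.99, and passed it with median scaling (1.23), with at least 4000 UMIs per barcode (1.64) and without the ribosomal-rich barcodes (1.67).

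The phosphate importers SLC34A2 and SLC20A1 also differed in opposite directions between lineages, while SLC20A2 (PiT2) did not pass 2-fold. SLC34A2 (NaPi-IIb), the phosphate importer of apical epithelial membranes, measured 509 CPM (481 to 539) in trophectoderm-like nuclei, 2.13 (0.854 to 4.38, from 7 UMIs) in hypoblast-like and 0 UMIs in epiblast-like nuclei, for which 3 UMIs would have been 3.72 CPM. Against both inner classes pooled it was 298-fold (144 to 743) higher. SLC20A1 (PiT1), a phosphate importer found in most cells, measured 58.2, 322 and 322 CPM, 5.52-fold (4.63 to 6.64) higher in the pooled inner classes. SLC20A2, its close relative, measured 11.7 CPM in the pooled inner classes and 17.1 CPM in trophectoderm-like nuclei, a ratio of 0.683 (0.440 to 1.07). In the blastoid, SLC34A2 measured 330 CPM (307 to 354) in trophectoderm-like, 72.1 in ribosomal-rich and 35.8 in DCC-high barcodes, 4.58-fold (3.95 to 5.33) above the next class. It was thus 1.54-fold (1.41 to 1.69) lower than in trophectoderm-like nuclei of the embryo, a smaller distance than for SLC1A1 or SLC16A7. Thinned nuclei with an SLC34A2 UMI made up 57.3% (50.7% to 63.8%) of embryo and 46.0% (37.8% to 54.3%) of blastoid trophectoderm-like nuclei, against 0 of 391 hypoblast-like nuclei. At 3 nuclei, that 0 allows a share of up to 0.767% with a UMI at 2000 UMIs per nucleus, which sets no limit on nuclei that express the gene. Unthinned shares were 78.3%, 83.8% and 1.76%. SLC20A1 was 3.29-fold (2.98 to 3.65) lower in the whole blastoid library and 1.37-fold (1.09 to 1.72) higher in blastoid trophectoderm-like nuclei.

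Some acid and bicarbonate carriers were far higher in the inner classes of the embryo. SLC9A9, a sodium-proton exchanger of endosomes, measured 20.1 CPM in trophectoderm-like, 701 in hypoblast-like and 1329 in epiblast-like nuclei. SLC4A7 (NBCn1), a sodium-bicarbonate importer, measured 54.4, 886 and 735 CPM. Pooled inner nuclei were 41.0-fold (30.8 to 55.9) higher for SLC9A9 and 15.7-fold (13.2 to 18.9) higher for SLC4A7. A second sodium-bicarbonate carrier, SLC4A5, was trophectodermal instead, at 127 (113 to 142), 4.25 and 6.19 CPM. SLC4A5 was matched closely by the blastoid, where it measured 127 CPM (113 to 142) in trophectoderm-like, 22.8 in ribosomal-rich and 16.8 in DCC-high barcodes, for a ratio between trophectoderm-like nuclei of 1.00 (0.851 to 1.18). The anion exchanger SLC26A4 (pendrin) was likewise called for trophectoderm-like nuclei in both libraries, at 74.9 CPM in the embryo and 52.1 CPM in the blastoid.

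SLC9A9 was 25.4-fold (21.6 to 30.2) and SLC4A7 6.30-fold (5.80 to 6.85) lower in the whole blastoid library (log2 -4.67 and -2.65, and -4.06 and -2.08 without the ribosomal-rich barcodes). Of the blastoid classes DCC-high nuclei had the most of each, 51.1 CPM for SLC9A9 and 271 for SLC4A7, still under the hypoblast-like and epiblast-like levels. SLC4A4 (NBCe1) was even across the embryo, at 42.0, 48.6 and 43.4 CPM, and uneven in the blastoid, at 3.31 CPM in trophectoderm-like, 52.1 in DCC-high and 2.85 in ribosomal-rich barcodes. The sodium-proton exchangers of epithelial surfaces were higher in the blastoid. SLC9A3 (NHE3) measured 165 CPM in trophectoderm-like and 156 in ribosomal-rich barcodes against 26.1 in embryo trophectoderm-like nuclei, 6.32-fold (4.81 to 8.41) apart between trophectoderm-like nuclei. SLC9A2 (NHE2) measured 42.6 CPM there against 2.57, 16.6-fold (7.36 to 46.2) apart. The sodium-potassium-chloride importer SLC12A2 (NKCC1) measured 142 CPM against 30.4, 4.67-fold (3.60 to 6.11) apart. By role, 5 of the 23 acid, bicarbonate and chloride carriers were at least 2-fold higher and 6 at least 2-fold lower in the whole blastoid library, and 6 and 5 of 22 within trophectoderm-like nuclei.

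For some carriers the DCC-high class of the blastoid had levels close to those of the inner classes of the embryo. SLC8A1 (NCX1), the sodium-calcium exchanger of the plasma membrane, measured 4.71 CPM in trophectoderm-like, 271 in hypoblast-like and 307 in epiblast-like nuclei. In the blastoid it measured 9.09 CPM in trophectoderm-like, 317 in DCC-high and 11.7 in ribosomal-rich barcodes, 27.1-fold (19.4 to 38.9) above the next class. SLC35F1, a relative of the nucleotide sugar carriers with no settled substrate, showed a like arrangement: 91.2, 479 and 878 CPM in the embryo, and 54.6, 510 and 23.1 CPM in the blastoid. SLC24A2, a potassium-dependent calcium exchanger, measured 34.7 CPM in DCC-high against 2.89 and 3.16 in the other blastoid classes, and 2.14, 7.29 and 17.3 CPM in the embryo, so its DCC-high level lay above those of the inner classes. SLC8B1, the sodium-calcium exchanger of mitochondria, measured 97.6 CPM in trophectoderm-like, 29.1 in hypoblast-like and 28.5 in epiblast-like nuclei and 31.4 CPM in blastoid trophectoderm-like nuclei.

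Other carriers raised in the inner classes, among them SLC1A3 and SLC9A9 above, lay far lower in DCC-high nuclei. Like levels of a few carriers thus give the DCC-high class no lineage name. SLC44A5, a choline carrier-like protein, measured 29.5, 189 and 669 CPM in the embryo and 4.13, 13.7 and 3.16 CPM in the blastoid, 29.7-fold (22.2 to 40.8) lower over whole libraries. At a finer clustering a group of 152 nuclei, named hypoblast-like from its markers, had SLC44A5 and SLC28A1 among its leading genes and held 60 of the 76 epiblast-like nuclei. SLC44A1, the widespread choline importer, measured 289, 237 and 256 CPM in the embryo and 171, 133 and 89.1 CPM in the blastoid. Of the 9 lipid, choline and acetyl-CoA carriers, 2 were at least 2-fold higher and 1 at least 2-fold lower in the whole blastoid library. Within trophectoderm-like nuclei 2 of 7 were higher and 2 lower. SLC44A3 and SLC44A4 were the higher ones in both comparisons.

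The nucleoside importers SLC28A1 and SLC28A3 differed in opposite directions too. SLC28A1 (CNT1), a sodium-driven importer of pyrimidine nucleosides, measured 0.856 CPM in trophectoderm-like (2 UMIs), 36.7 in hypoblast-like and 114 in epiblast-like nuclei. SLC28A3 (CNT3), which also takes purines, measured 143, 11.2 and 19.8 CPM. In the blastoid SLC28A1 had 5 UMIs in the whole library against 215, a 46.9-fold (19.8 to 146) lower level, and SLC28A3 measured 25.6 CPM in trophectoderm-like nuclei against 4.74 and 3.48, 5.56-fold (4.23 to 7.42) lower than in those of the embryo. The equilibrative carrier SLC29A1 (ENT1) measured 18.4, 90.2 and 37.2 CPM in the embryo, and 71.1 CPM in ribosomal-rich against 19.0 in trophectoderm-like barcodes of the blastoid. Of the 6 nucleoside carriers, 1 was at least 2-fold higher and 4 at least 2-fold lower in the whole blastoid library, and 0 and 2 of 4 within trophectoderm-like nuclei.

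**Figure D3:**
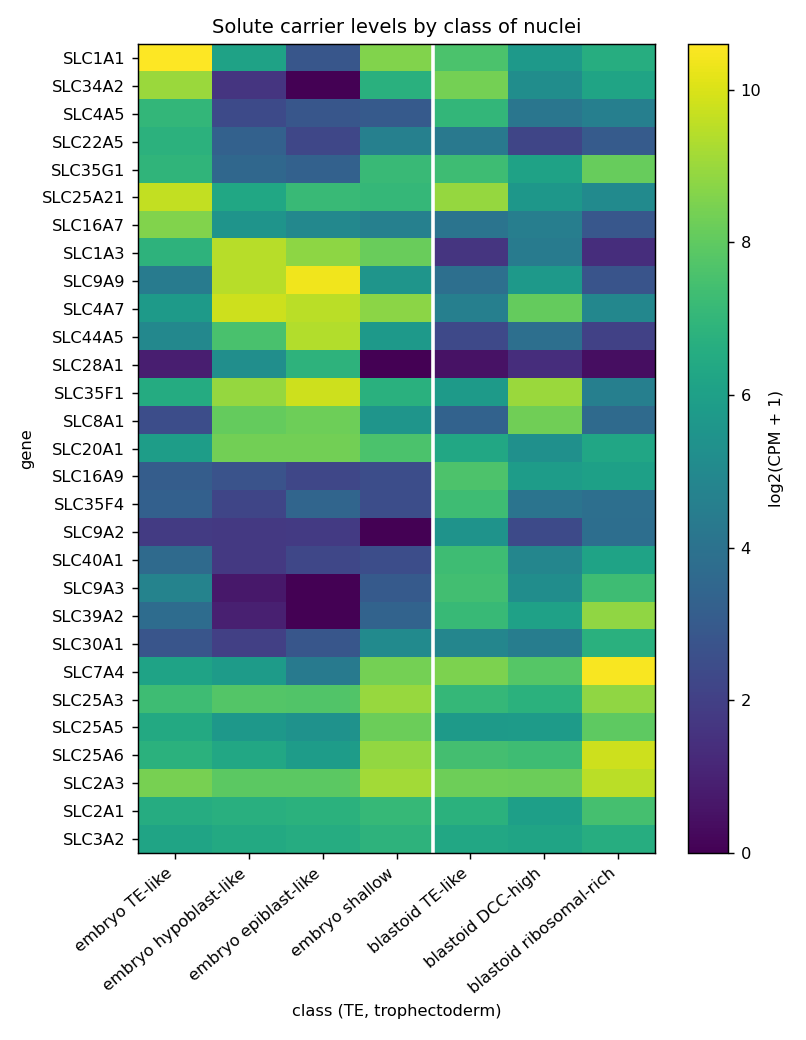
Rows are 29 members and columns the 4 classes of the blastocyst (left of the white line) and the 3 of the blastoid, and colour gives log2(CPM + 1). The top rows are bright in embryo trophectoderm-like nuclei, the next block in hypoblast-like and epiblast-like nuclei, and the rows from SLC16A9 to SLC7A4 in blastoid classes.

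Metal carriers were among the members furthest above the embryo. SLC39A2 (ZIP2), a zinc importer, measured 463 CPM (440 to 488) in ribosomal-rich, 141 (126 to 156) in trophectoderm-like and 65.3 in DCC-high barcodes of the blastoid. In the embryo it had 36 UMIs, with 12.4 CPM in trophectoderm-like, 0.911 in hypoblast-like and 0 UMIs in epiblast-like nuclei. It was 49.2-fold (35.4 to 70.4) higher in the blastoid library, the highest ratio of all members, with a log2 ratio of 5.62 that was 4.36 without the ribosomal-rich barcodes. Between trophectoderm-like nuclei it was 11.3-fold (7.74 to 17.2) higher. SLC40A1 (ferroportin), the iron exporter, measured 157 CPM (142 to 174) in trophectoderm-like, 69.9 in ribosomal-rich and 27.9 in DCC-high barcodes against 11.6, 2.43 and 3.72 CPM in the embryo, 13.6-fold (9.19 to 20.9) apart between trophectoderm-like nuclei. The zinc exporter SLC30A1 (ZnT1) measured 105 CPM in ribosomal-rich and 28.5 in trophectoderm-like barcodes against 5.99 in embryo trophectoderm-like nuclei. Its log2 ratio over whole libraries was 3.24, and 2.02 without the ribosomal-rich barcodes.

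Zinc carriers lay on both sides within trophectoderm-like nuclei. SLC39A4 (ZIP4) measured 14.1 CPM in blastoid trophectoderm-like nuclei against 70.2 in those of the embryo, and SLC39A14 (ZIP14) 38.9 against 160. SLC39A8 (ZIP8), an importer of zinc and manganese, measured 20.1, 82.0 and 99.1 CPM across the embryo lineages and 93.0 CPM in blastoid trophectoderm-like nuclei, 4.62-fold (3.36 to 6.47) above their embryo counterpart. SLC39A1 (ZIP1), a zinc importer of the plasma membrane, was 2.39-fold (1.45 to 4.07), SLC30A2 (ZnT2), a zinc carrier of vesicles, 2.19-fold (1.36 to 3.62) and SLC39A11 2.01-fold (1.75 to 2.32) higher there. The magnesium carrier SLC41A2 was called for trophectoderm-like nuclei in both libraries, at 378 CPM against 94.1 in each inner class of the embryo and 504 CPM against 72.1 and 95.8 in the blastoid. Of the 26 metal and heme carriers, 8 were at least 2-fold higher and 2 at least 2-fold lower in the whole blastoid library. Within trophectoderm-like nuclei the counts were less uneven, with 9 of 23 higher and 5 lower.

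Of 32 mitochondrial carriers with enough UMIs in the embryo classes, 3 were called for trophectoderm-like nuclei and 0 for either inner class, a share close to the 10.1% of all features for the former. SLC25A21, which exchanges oxodicarboxylates formed in lysine breakdown, was called for trophectoderm-like nuclei in both libraries, at 798, 77.7 and 145 CPM in the embryo and 479, 48.4 and 32.2 CPM in the blastoid classes. It was 1.66-fold (1.55 to 1.79) lower in blastoid trophectoderm-like nuclei. The aspartate-glutamate carrier SLC25A12 measured 58.2 CPM in trophectoderm-like, 6.68 in hypoblast-like and 87.9 in epiblast-like nuclei and 224 CPM in blastoid trophectoderm-like nuclei, 3.85-fold (3.18 to 4.68) above those of the embryo. SLC25A24, an ATP-magnesium and phosphate exchanger, measured 86.0, 87.4 and 46.8 CPM in the blastoid and 4.86 to 12.4 CPM in the named embryo classes. The glutathione carrier SLC25A40 was lower in the blastoid, at 55.0, 101 and 16.4 CPM against 220, 241 and 291 CPM.

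The phosphate carrier SLC25A3 and the ADP/ATP carriers SLC25A5 and SLC25A6 were highest in ribosomal-rich barcodes (454, 251 and 895 CPM) and, in the embryo, in the shallow cluster (497, 294 and 469 CPM). SLC25A6 had a log2 ratio of 2.10 over whole libraries and 0.56 without the ribosomal-rich barcodes. For SLC25A3 and SLC25A5 the log2 ratios of 0.30 and 0.85 became -0.81 and -0.48. The ADP/ATP carriers are near-identical in sequence, so the counting could have split their reads. Both classes were shallow, with 15.7% and 4.44% of their UMIs from ribosomal protein genes, and the part of RNA quality or free RNA in these levels was not tested. Of 33 mitochondrial carriers, 5 were at least 2-fold higher and 7 at least 2-fold lower in the whole blastoid library, and 4 and 5 of 27 within trophectoderm-like nuclei, counts near those of all features.

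Of the 11 carriers of organic ions, 7 were at least 2-fold higher and 1 at least 2-fold lower in the whole blastoid library, where 21.0% and 18.0% of all features were. Within trophectoderm-like nuclei 3 of 7 were higher and 1 was lower. The lower one was SLC22A5 (OCTN2), the carnitine importer, which measured 110 CPM in trophectoderm-like against 8.80 and 3.72 in the inner classes of the embryo and 18.6 CPM in blastoid trophectoderm-like nuclei, 5.94-fold (4.31 to 8.34) lower. SLC22A5 and the carnitine carrier SLC16A9 thus differed in opposite directions. SLC22A23, a member of the organic cation family with no settled substrate, was called for trophectoderm-like nuclei in both libraries, at 47.1 CPM in the embryo and 231 CPM in the blastoid. SLC22A17, a receptor for lipocalin-bound iron, had 148 UMIs in blastoids against 6 in blastocysts, a 22.6-fold ratio (10.1 to 62.6).

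Nucleotide sugar carriers of the Golgi and their relatives showed 6 of 20 members at least 2-fold higher and 2 at least 2-fold lower in the blastoid library, and 3 and 2 of 17 within trophectoderm-like nuclei. SLC35F4, a relative with no settled substrate, measured 155 CPM (140 to 172) in blastoid trophectoderm-like nuclei, 15.8 and 13.6 in the other blastoid classes and 3.64 to 9.91 in the named embryo classes, 18.2-fold (11.6 to 30.1) apart between trophectoderm-like nuclei. SLC35F3 went the other way, at 91.2, 86.5 and 81.8 CPM across the embryo and 12.0 CPM in trophectoderm-like but 191 CPM in DCC-high nuclei of the blastoid. SLC35G1 was called for embryo trophectoderm-like nuclei (123, 10.6 and 8.67 CPM) and measured 159 CPM in those of the blastoid. The CMP-sialic acid carrier SLC35A1 was even across the embryo, at 41.1, 42.8 and 48.3 CPM. For SLC35B1, which brings ATP into the endoplasmic reticulum, the log2 ratio over whole libraries was 1.76, and 0.21 without the ribosomal-rich barcodes. Of the 5 vitamin carriers 0 passed 2-fold in either direction over whole libraries, and 1 was higher and 1 lower within trophectoderm-like nuclei. The ascorbate importer SLC23A2 measured 16.7, 66.5 and 190 CPM across the embryo lineages and was 3.24-fold (2.25 to 4.76) higher in trophectoderm-like nuclei of the blastoid than in those of the embryo.

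**Figure D4:**
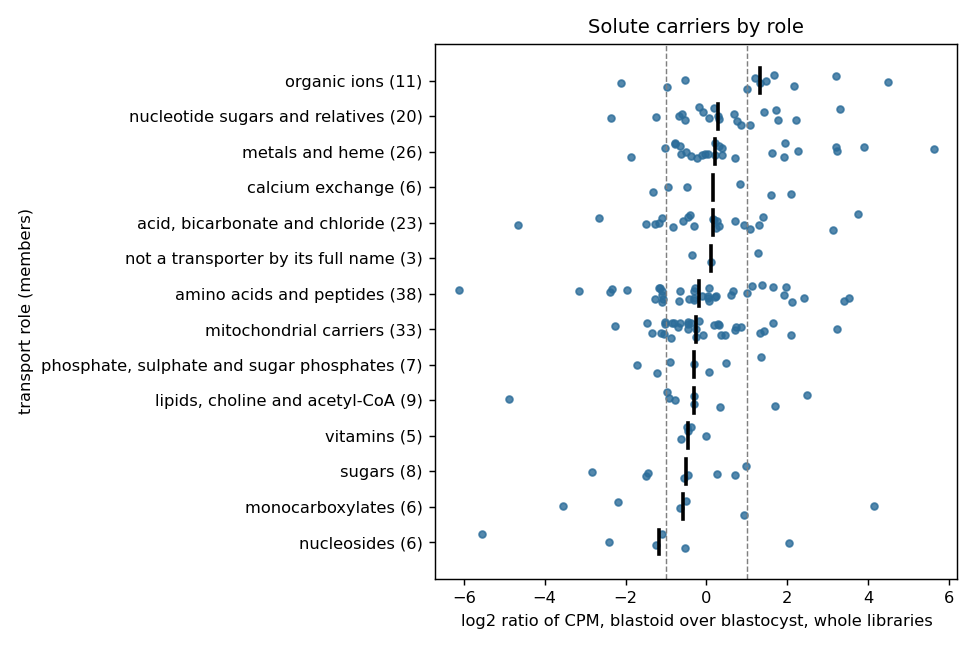
Each point is a member, placed by its log2 ratio of CPM in the blastoid over the blastocyst for whole libraries (horizontal), in rows by transport role with the number of members. Black bars mark medians and dashed lines 2-fold. Organic ion carriers lie mostly to the right and nucleoside carriers mostly to the left, while most roles spread to both sides.

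Trophectoderm-like was the only lineage name given in both libraries, from raised markers and against the marker sums in the blastoid, so the name does not show that these nuclei are alike. Between them, 38 of 169 members with at least 50 UMIs were at least 2-fold higher in the blastoid, where 15.2% of 9817 features were, and 33 were at least 2-fold lower, where 11.7% were. That is 22.5% and 19.5% of the members. Their median log2 ratio was 0.13, beside 0.05 over all features. The 5 highest ratios were those of SLC16A9, SLC35F4, SLC9A2, SLC40A1 and SLC39A2, and the 5 lowest those of SLC1A3, SLC16A7, SLC4A4, SLC1A1 and SLC35F3. These counts were 38 and 32 at a coarser and at a finer clustering (15.1% and 11.8% of all features at the coarser, 15.2% and 11.6% at the finer) and 38 and 31 with gates on marker genes (16.3% and 10.5%).

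**Figure D5:**
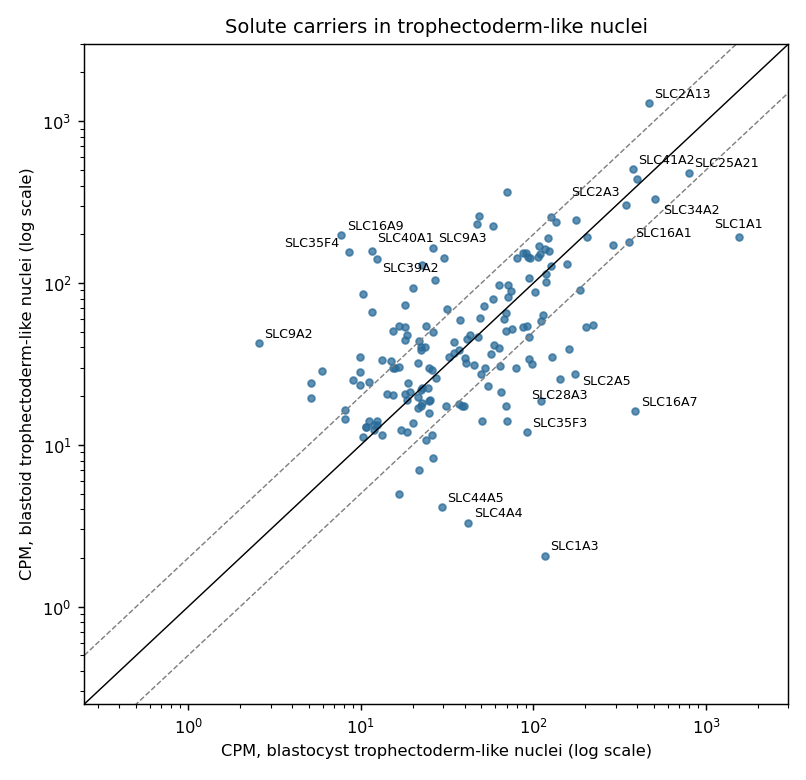
Each point is a member with at least 50 UMIs in the trophectoderm-like nuclei of both libraries together, placed by its CPM in those of the blastocyst (horizontal, log scale) and of the blastoid (vertical, log scale). The solid line marks equal levels and the dashed lines a 2-fold difference. SLC16A9, SLC35F4 and SLC9A2 lie far above the lines and SLC1A1, SLC1A3 and SLC16A7 far below, while SLC2A3, SLC34A2 and SLC41A2 lie between them.

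Across the blastoid classes, 193 members had enough UMIs. Trophectoderm-like nuclei had 34 calls (17.6%, against 10.0% of 11296 features), ribosomal-rich barcodes 24 (12.4%, against 16.6%) and DCC-high nuclei 20 (10.4%, against 13.3%). Calls for trophectoderm-like nuclei in both libraries were made for 16 of the 167 members tested in each, where 3.89% of 9941 features had them. These 16 are 40.0% of the 40 calls in the embryo and 47.1% of the 34 in the blastoid. Of all features called, 36.0% and 34.2% were shared in the same way, so the first share lies near the background. They were SLC1A1, SLC4A5, SLC5A10, SLC15A1, SLC22A5, SLC22A23, SLC25A21, SLC25A30, SLC26A4, SLC28A3, SLC29A3, SLC34A2, SLC37A1, SLC38A6, SLC38A9 and SLC41A2. Among DCC-high calls were SLC8A1, SLC35F1, SLC4A7, SLC4A4 and SLC9A9, described above, and SLC6A14, an importer of many amino acids, at 187 CPM against 49.6 and 9.80 in the other blastoid classes.

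Partners of the carriers were read from a list of 46 genes that are no members, of which 43 had a row. Of 27 with at least 100 UMIs, 5 were at least 2-fold higher and 5 at least 2-fold lower in the blastoid library, near the 21.0% and 18.0% of all features. Of 22 with enough UMIs in trophectoderm-like nuclei, 5 were higher and 3 lower, where 15.2% and 11.7% of all features were. BSG (basigin), the chaperone that carries monocarboxylate carriers to the membrane, had 5046 UMIs in blastoids against 996 in blastocysts. It measured 1246 CPM in ribosomal-rich, 276 in trophectoderm-like and 230 in DCC-high barcodes of the blastoid, and 105 in embryo trophectoderm-like nuclei. MTOR, the kinase downstream of SLC38A9, measured 189 CPM in trophectoderm-like, 1031 in hypoblast-like and 1800 in epiblast-like nuclei and 104 CPM in blastoid trophectoderm-like nuclei. MPC1, a subunit of the mitochondrial pyruvate carrier, measured 83.1 CPM in embryo and 16.1 in blastoid trophectoderm-like nuclei, while the other subunit, MPC2, measured 35.5 and 33.1 CPM. The hexokinase HK2, which traps imported glucose, measured 128 and 46.7 CPM in the same order, and HK1, of the same activity, 66.4 and 88.5 CPM.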

How the data were processed

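The deposited matrices hold raw UMI counts. Per the file headers, Cell Ranger 7.2.0 wrote them. The submitters' processing notes name Cell Ranger 7.1.0 and Seurat 4.3.0. The genome build and annotation are not given in the sources used here, so no coordinates or lengths are printed. Levels of single carriers are not compared between genes. Sums of marker lists were compared within a class, although the lists differ in size and gene length was not corrected for. Symbols come from the deposited feature lists. Gene order comes from the RefSeq table of ARS-UCD2.0, where all 201 members matched by symbol.

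Barcodes with at least 500 genes and under 10% mitochondrial UMIs were kept, and 30 blastoid and 6 blastocyst barcodes with the highest Scrublet scores were removed as doublets (0.8% per 1000 barcodes). Each library was clustered with scanpy 1.11.5 and leidenalg 0.10.2 (2000 variable genes, 30 components, 15 neighbours, resolution 0.5). Classes were named from at least 3 markers with at least 100 UMIs and 1.5 times the CPM of the other clusters, and more markers than any other list. The DCC-high cluster had 9 raised neural markers and met that count, but was called by a leading gene because the neural list was written with its genes known. Over 5% ribosomal protein UMIs, or a median depth far under that of the library, left a cluster unnamed. These naming rules were set after seeing the clusters. Counts were summed per class and set as CPM. Intervals are exact Poisson for CPM, exact conditional for ratios and Clopper-Pearson for shares. Counts under 3 were set to 3 for list counts, medians and calls. Members, lists and comparisons were chosen with earlier results of these data known. Members named are a list of known roles, the 8 highest and lowest ratios over whole libraries, the 5 highest and lowest in trophectoderm-like nuclei, the 5 highest over the next class in each class, and the 5 with most UMIs. Members outside that rule were chosen after their values were seen. The ratios between libraries and their intervals were tested on simulated Poisson counts, which hold no spread between libraries. The clustering, naming, thinning and class calls were not tested in this way. The values of 2 genes are not reported here.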

Additional observations from a re-analysis of the deposited data

How the results depend on the processing

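No paired analysis was possible because each group has 1 library. Ratios were recomputed for 96 members over whole libraries and for 86 in trophectoderm-like nuclei, and of these none that passed 2-fold changed sign under the alternatives run. Over whole libraries 66 of the 96 moved beyond their counting interval without the ribosomal-rich barcodes and 66 with at least 4000 UMIs per barcode. Median scaling, which shifts every ratio by the same amount, moved 44 of the 96. In trophectoderm-like nuclei 40 recomputed ratios of 27 members moved beyond their counting interval. These were 16 with at least 4000 UMIs per barcode, 15 with the shallow cluster counted in and 9 with marker gates, and 0 with median scaling. Below, the share of all features called under the same setting stands in parentheses.

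Over whole libraries, scaling to the median ratio gave 27 members lower (12.8%), a 1.5-fold limit 66 lower (31.8%), and a 4-fold limit 22 higher (10.4%) and 15 lower (5.44%). The members' median log2 ratio turned positive with median scaling (0.14), with at least 4000 UMIs per barcode (0.11) and without the ribosomal-rich barcodes (0.06). In trophectoderm-like nuclei a 4-fold limit gave 17 of 169 higher and 12 lower (5.11% and 3.77%), and at least 200 UMIs gave 18 and 20 of 86 (12.5% and 11.2%). Counting the shallow cluster as trophectoderm-like, an alternative chosen after seeing the data, gave 38 higher and 34 lower of 177 (12.8% and 12.1%), and 42 calls of 179 for that class in the blastocyst (10.2%). Hypoblast-like and epiblast-like calls in the blastocyst were 8 and 17 at resolution 0.3, 7 and 16 at resolution 1.0 (1.76% and 7.12%, where the epiblast-like class held 16 nuclei), 7 and 16 with at least 1000 genes (2.81% and 6.43%), 12 and 13 at 1.5-fold (4.41% and 5.76%), 0 and 0 at 4-fold (0.0660% and 0.368%), and 2 and 4 of 105 with at least 200 UMIs (0.525% and 1.51%). Marker gates gave 25 epiblast-like (19.2%) and 21 trophectoderm-like (5.22%) calls. Trophectoderm-like calls there were 18 at 4-fold (4.11%) and 26 of 105 with at least 200 UMIs (9.91%), and 10 members passed 4-fold in both inner classes (4.34%). In the blastoid, trophectoderm-like calls were 52 of 193 at 1.5-fold (16.7%). At 4-fold the trophectoderm-like, DCC-high and ribosomal-rich calls were 12, 11 and 5 (2.77%, 6.41% and 6.03%), and with at least 200 UMIs 22, 12 and 15 of 102 (9.91%, 11.7% and 19.8%), so the DCC-high and ribosomal-rich shares lay near or under those of all features. Marker gates gave no DCC-high class, so calls across blastoid classes were not run with them. Over all deposited barcodes the members' share of blastocyst UMIs was 1.31%.

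Thinned to 1000 UMIs, SLC1A1 was seen in 71.5% of blastocyst trophectoderm-like, 5.30% of hypoblast-like and 14.5% of blastoid trophectoderm-like nuclei. SLC1A3 was seen in 8.94% of blastocyst trophectoderm-like and 48.7% of hypoblast-like nuclei, SLC34A2 in 31.5% of blastocyst and 29.6% of blastoid trophectoderm-like nuclei, and SLC16A9 in 13.8% of blastoid trophectoderm-like nuclei. The cause of these changes was not tested, apart from the fewer UMIs, members or nuclei that an alternative leaves. With 1 library per group, depth limits only counting error, and the spread between embryos or blastoids is unknown.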

Other observations

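At a finer clustering, the trophectoderm-like nuclei of the blastocyst fell into groups of 134 and 100 nuclei that differed in some carriers. SLC34A2 measured 436 CPM (402 to 472) in the larger and 621 CPM (572 to 674) in the smaller group, where it was among the leading genes, and SLC2A3 280 CPM (253 to 309) and 429 CPM (388 to 473). SLC1A3 went the other way, at 160 CPM (139 to 182) and 46.2 CPM (33.5 to 62.3). SLC1A1 was high in both, at 1467 and 1682 CPM. Carriers that lie next to each other in the RefSeq gene order gave 5 pairs among the members. SLC25A43 and SLC25A5 had log2 ratios of -1.35 and 0.85 over whole libraries, SLC9B2 and SLC9B1 0.16 and 1.29, SLC36A2 and SLC36A1 -0.43 and 0.07, and SLC7A6 and SLC7A6OS 0.66 and -0.37, where reads of overlapping neighbours may not be told apart.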
